A study of Mus musculus with 6 samples.

Results

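The genes described here are 10 members of the ATF4 and amino acid stress response: Atf4, Atf3, Atf5, Trib3, Asns, Chac1, Sesn2, Gdf15, Nupr1 and Ppp1r15a. They were taken by gene symbol from the 36144 symbols of the gene table of a mouse inguinal white adipose tissue (iWAT) RNA-seq series, and all 10 were found. By edgeR's quasi-likelihood test 2 of them were called lower in Cebpa_ASKO iWAT than in Cebpa_fl/fl iWAT, against 3.84% of all genes tested. Asns, which makes asparagine, was at 49.1% of its control mean, and Sesn2, a leucine-binding brake on mTORC1, was at 55.0%. The Asns call held with each library left out in turn, while the Sesn2 call was kept without Cebpa_fl/fl 2 and lost without any other library. None of the 10 was called higher by edgeR's quasi-likelihood test, against 1.39% of all genes tested. DESeq2 called Atf5, Trib3 and Nupr1 higher, against 3.98% of all genes. In normalized counts Atf5, Trib3, Nupr1 and, by a narrow gap, Atf3 had all 3 Cebpa_ASKO libraries above all 3 controls, as had 12.9% of all genes tested. Outside the 10 genes, Cebpg, an ATF4 partner whose gene lies near Cebpa on chromosome 7, rose. Of 15 enzymes of amino acid synthesis and one-carbon metabolism Phgdh, Psat1, Cbs, Cth and Gpt2 fell, Got1 rose and 9 were not called.

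The series held 6 libraries of poly-A selected RNA, each from both inguinal depots of 1 mouse with the lymph nodes removed. The 3 Cebpa_ASKO mice were homozygous for the floxed Cebpa allele and carried AdipoQ-Cre, and the 3 Cebpa_fl/fl mice were Cre-negative littermates with the same floxed alleles. All were 10-week-old females on the C57BL6/J background, fed ad libitum, and all libraries carried batch number 1. Cre under the adiponectin promoter acts in cells that already express adipocyte genes, so other cells of the depot, and precursors, keep Cebpa. The design asked how loss of C/EBPα from adipocytes alters the iWAT transcriptome.

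The integrated stress response begins when a stress-sensing kinase phosphorylates the translation initiation factor eIF2α: GCN2 on uncharged tRNA, PERK on unfolded protein in the endoplasmic reticulum (ER), PKR on double-stranded RNA and HRI on haem shortage or mitochondrial stress. General translation then slows, while open reading frames in the leader of the Atf4 mRNA let more ATF4 protein be made. ATF4 pairs with other basic leucine zipper (bZIP) proteins, often of the C/EBP family, and binds a composite C/EBP-ATF element in genes for amino acid synthesis, uptake and tRNA charging. Because ATF4 is set largely at translation, mRNA-seq reads its transcript and those of its targets but not the protein.

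The C/EBP-ATF element was searched as TGATGNAAN, where N is any base, on both strands of the RefSeq promoters on build GRCm38.p6. Each promoter runs from 250 bases before to 50 bases after the annotated start. All 10 members had a promoter there, and the promoters of 5 held the element, against 2.99% of the 11970 tested genes with a promoter in the table and 3.95% of all 32851 promoters. The 5 matches are printed here because Asns, which fell, and Atf3, Nupr1 and Trib3, which were higher without overlap in normalized counts, all carry one. Each is read 5′ to 3′ on the strand of its gene, which is the plus strand for Chac1 and the minus strand for the other 4, with the 9 bases of the element or of its reverse complement in capitals.
Asns, chr6:7693214-7693242: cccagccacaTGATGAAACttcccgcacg
Atf3, chr1:191183426-191183454: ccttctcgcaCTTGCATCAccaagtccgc
Chac1, chr2:119351038-119351066: cttccctgccGTTGCATCActcctgccag
Nupr1, chr7:126625563-126625591: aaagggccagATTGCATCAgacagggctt
Trib3, chr2:152344029-152344057: ttagctcaggTTTACATCAgccgggcggg

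Asns held the element as TGATGAAAC on its own strand, beginning 23 bases before the start. The other 4 held it on the opposite strand, beginning 111 bases before the start in Atf3 and in Nupr1, 194 bases before it in Chac1 and 14 bases after it in Trib3. Starts are RefSeq's and differ from the ends of the GENCODE gene spans given with each gene. The elements of Asns, Atf3 and Nupr1 lie before the RefSeq start but inside the GENCODE span, that of Trib3 lies after the RefSeq start but outside the GENCODE span, and that of Chac1 lies before both. The promoters of Atf4, Atf5, Sesn2, Gdf15 and Ppp1r15a did not hold these letters, which says only that they are not in this window. The 250 bases before the Asns start are given in full, since Asns had the lowest fold change of the 10, with those of Nupr1, which carries the element but was not lower.
Asns upstream stretch, chr6:7693210-7693459: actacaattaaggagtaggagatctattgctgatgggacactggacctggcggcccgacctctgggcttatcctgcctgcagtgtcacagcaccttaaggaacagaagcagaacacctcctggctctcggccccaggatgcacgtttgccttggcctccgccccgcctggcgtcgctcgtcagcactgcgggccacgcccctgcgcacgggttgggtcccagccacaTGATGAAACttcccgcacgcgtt
Nupr1 upstream stretch, chr7:126625471-126625720: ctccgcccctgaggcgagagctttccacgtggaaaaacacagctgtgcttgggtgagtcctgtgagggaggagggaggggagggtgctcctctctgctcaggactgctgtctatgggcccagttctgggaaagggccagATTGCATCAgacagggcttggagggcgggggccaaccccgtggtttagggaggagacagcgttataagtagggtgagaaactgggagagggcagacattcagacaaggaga

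The libraries held between 33141769 and 49477671 estimated counts. Cebpa had 448, 465 and 498 normalized counts (CPM, counts scaled to a library of 1000000) in Cebpa_fl/fl and 37.7, 45.8 and 37.2 CPM in Cebpa_ASKO, a log2 fold change of -3.55 (SE 0.131, n = 3 per genotype, adjusted p = 0.000163 in edgeR's quasi-likelihood test). An exact two-sided permutation test gave p = 0.1, the smallest that its 20 arrangements allow. Summed adipocyte markers were 17427 to 20273 CPM in Cebpa_fl/fl and 7139 to 9550 CPM in Cebpa_ASKO, with 5 of 10 called lower and a median log2 fold change of -0.82. Summed skeletal muscle markers were 648 to 848 CPM and 2067 to 5821 CPM, with 11 of 12 called higher. Summed mammary epithelial markers were 648 to 1304 CPM and 1713 to 1860 CPM, with 0 of 9 called by edgeR's quasi-likelihood test, 4 called higher by DESeq2 and 7 at an unadjusted p below 0.05. Lymphocyte markers summed to 520 CPM in Cebpa_fl/fl 1 and to 68.4 to 108 CPM in the other libraries. Endothelial markers summed to 390 to 460 CPM against 277 to 372 CPM, and macrophage, fibroblast and smooth muscle sums overlapped between genotypes. In whole tissue, fewer cells of a type and less RNA per cell cannot be told apart. A fit with the summed skeletal muscle level as a covariate is given below, but that level nearly follows genotype, so the fit cannot separate muscle from genotype. The part of the other shifts in the results on the 10 genes was not tested.

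Across the depot 840 of 16069 genes tested were called at an adjusted p below 0.05, or 5.23%. The 2 of 10 members called lower are to be read against 3.84% of all genes called lower. The 0 of 10 called higher in edgeR's quasi-likelihood test stands against 1.39%. At an unadjusted p below 0.05, 3 members were higher and 2 lower, against 9.44% of all genes higher and 19.8% in either direction. DESeq2 called 3 members higher, Atf5, Trib3 and Nupr1, where it called 3.98% of all genes higher. It called the same 2 lower, where it called 6.7% of all genes lower and 10.7% in either direction. In CPM the genotypes did not overlap for 6 of 10 members, 4 higher and 2 lower, against 26.1% of all genes tested, 12.9% higher and 13.2% lower. The median log2 fold change of the members was 0.34, beside 0.02 for all genes tested. The shares over all genes in this paragraph also stand beside the counts given for the lists below.

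**Figure D1:**
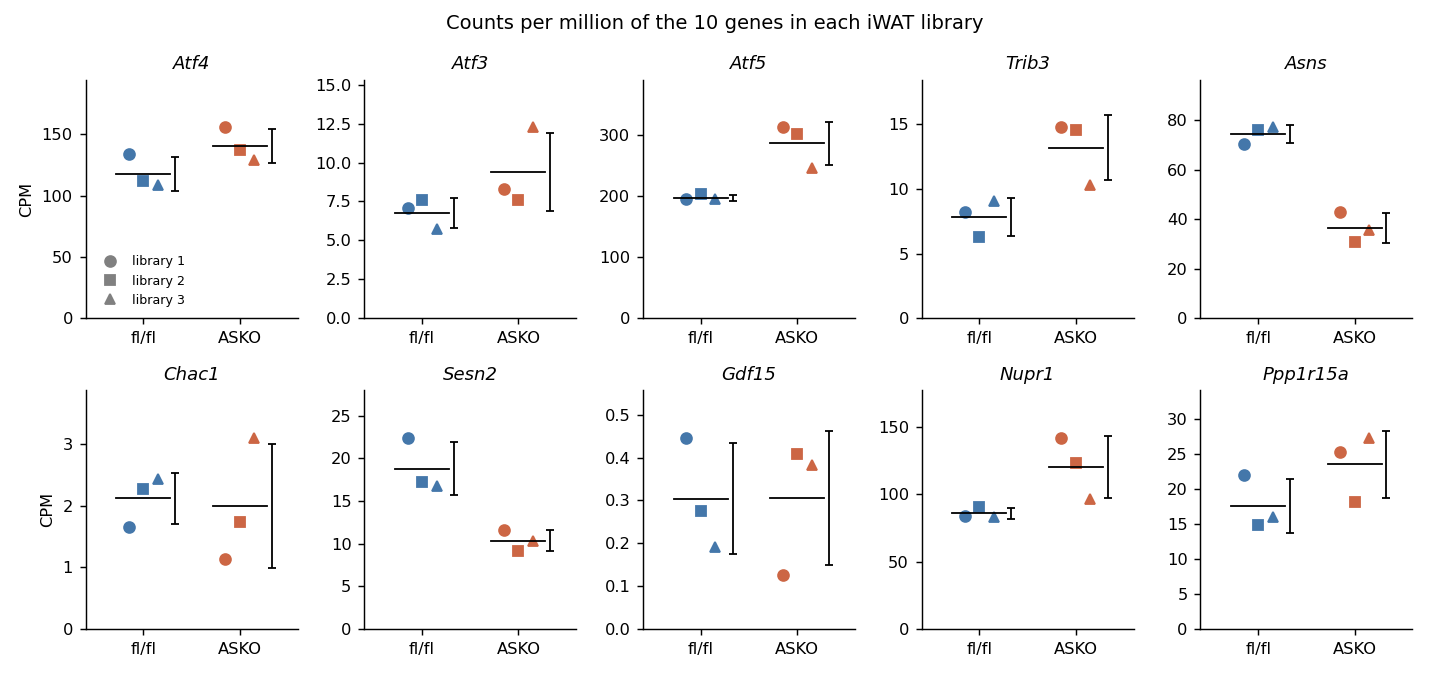
Normalized counts (CPM) of each gene in the 6 libraries, on axes that start at 0. Circles, squares and triangles are libraries 1, 2 and 3, horizontal lines are means and bars are 1 SD (n = 3). Asns and Sesn2 are lower in all 3 Cebpa_ASKO libraries, while Atf5, Trib3, Nupr1 and Atf3 are higher in all 3, with the Atf3 groups nearly touching at 7.57 and 7.61 CPM.

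Atf4, on chr15:80255184-80257541, encodes the factor at the centre of the response. It had 134, 112 and 108 CPM in Cebpa_fl/fl and 156, 137 and 129 CPM in Cebpa_ASKO. In CPM the groups overlapped, since Cebpa_fl/fl 1 lay above Cebpa_ASKO 3. In the authors' TPM, which are scaled by transcript length and library, they did not overlap. Those values were 96.0, 90.0 and 83.2 in Cebpa_fl/fl and 112, 113 and 108 in Cebpa_ASKO, and limma on log2(TPM + 1) gave an adjusted p of 0.138. On counts the log2 fold change of Atf4 was 0.25 (95% interval -0.04 to 0.54, SE 0.122), with an adjusted p of 0.320 in edgeR's quasi-likelihood test. A rise of up to 0.54 on the log2 scale is within the interval.

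Upstream of Atf4, none of the 18 genes for eIF2α kinases, eIF2B subunits and related translation control was called in either direction, 0 of 18 were called by DESeq2, and 1 of 18 had an unadjusted p below 0.05. Their median log2 fold change was -0.04. The kinase genes had log2 fold changes of 0.02 for Eif2ak1 (HRI), 0.13 for Eif2ak2 (PKR), 0.11 for Eif2ak3 (PERK) and 0.07 for Eif2ak4 (GCN2). Eif2ak2 had the widest 95% interval of these, -0.45 to 0.70. Eif2ak4 had 16.1, 16.8 and 19.3 CPM in Cebpa_fl/fl and 19.6, 18.0 and 17.1 CPM in Cebpa_ASKO, and its 95% interval ran from -0.19 to 0.33. The lowest value was that of Ppp1r15b, the constitutive regulatory subunit that guides phosphatase to eIF2α, at -0.36 (95% interval -0.71 to -0.02, adjusted p = 0.223 in edgeR's quasi-likelihood test). Eif2b5, the catalytic subunit of the exchange factor eIF2B, was at -0.20 with an adjusted p of 0.255. Kinase activity and eIF2α phosphorylation are not read by these data.

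Ppp1r15a (GADD34, chr7:45522916-45526268) encodes the stress-induced counterpart of Ppp1r15b, which closes the response by restoring eIF2α. It had 22.0, 14.8 and 16.1 CPM in Cebpa_fl/fl and 25.2, 18.1 and 27.3 CPM in Cebpa_ASKO. The groups overlapped, with Cebpa_fl/fl 1 above Cebpa_ASKO 2. The log2 fold change was 0.42 (95% interval -0.07 to 0.91, adjusted p = 0.328 in edgeR's quasi-likelihood test).

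Atf5 (chr7:44812256-44816658) encodes a bZIP factor that, like ATF4, is translated through upstream reading frames and is tied to mitochondrial stress. It had 195, 203 and 195 CPM in Cebpa_fl/fl and 312, 301 and 246 CPM in Cebpa_ASKO. Every Cebpa_ASKO library was above every Cebpa_fl/fl library, and Cebpa_ASKO 3 was the nearest to the controls. Its log2 fold change was 0.54 (95% interval 0.26 to 0.82, SE 0.118), and the adjusted p of 0.0524 in edgeR's quasi-likelihood test missed the threshold. DESeq2 gave an adjusted p of 0.000765, and edgeR without Cebpa_ASKO 3 gave 0.0338. With any other single library left out, edgeR did not call Atf5, at adjusted p of 0.0702 to 0.201. Atf5 shares bases with Nup62 and Il4i1 on the opposite strand, and 3.08% of the 31-base stretches of its leading transcript also occur in their transcripts. Those genes averaged 26.5 and 3.16 CPM.

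Atf3 (chr1:191170296-191218039) encodes an early stress factor induced by ATF4 and by many other signals. It had 7.08, 7.57 and 5.70 CPM in Cebpa_fl/fl and 8.27, 7.61 and 12.3 CPM in Cebpa_ASKO. The groups did not overlap, but Cebpa_fl/fl 2 and Cebpa_ASKO 2 were almost equal and Cebpa_ASKO 3 stood above the rest. In the authors' TPM the groups overlapped, with Cebpa_fl/fl 2 at 5.24 and Cebpa_ASKO 1 at 5.14. The log2 fold change was 0.47 (95% interval -0.06 to 1.00, adjusted p = 0.312 in edgeR's quasi-likelihood test). Cebpa_ASKO 3 also had the highest summed level of 18 immediate early genes, at 926 CPM against 574 to 758 CPM in the other 5 libraries, and the part of this in the Atf3 value was not tested. Without Cebpa_ASKO 3 the Atf3 log2 fold change was 0.21.

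**Figure D2:**
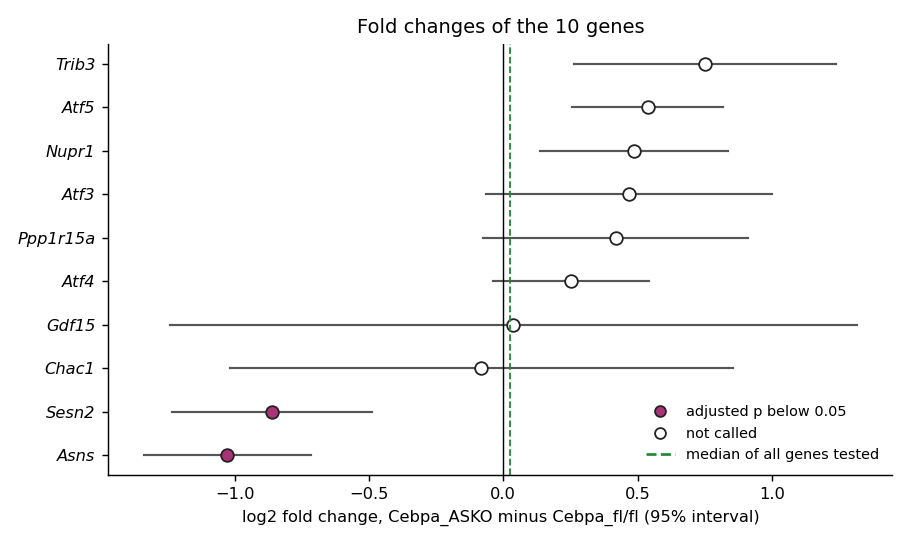
Log2 fold changes of the 10 genes, Cebpa_ASKO minus Cebpa_fl/fl, with 95% intervals from edgeR's quasi-likelihood fit (3 libraries per genotype). Filled points passed an adjusted p below 0.05, open points did not, and the dashed line is the median of all genes tested, 0.02. The intervals of Atf5, Trib3 and Nupr1 lie above 0 without a call after adjustment, and those of Chac1 and Gdf15 are the widest.

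Among 8 bZIP partners of ATF4, Cebpg rose and none fell, where 1.39% of all genes tested were called higher. At an unadjusted p below 0.05, 5 were higher, against 9.44% of all genes tested. Cebpg encodes C/EBPγ, a short C/EBP protein that lacks an activation domain of its own and dimerizes with ATF4. It had 71.7, 83.4 and 75.5 CPM in Cebpa_fl/fl and 225, 199 and 166 CPM in Cebpa_ASKO, with no overlap. Between genotypes the log2 fold change was 1.36 (SE 0.135, adjusted p = 0.00316 in edgeR's quasi-likelihood test). Cebpg lies at chr7:35046422-35056573, near the floxed Cebpa at chr7:35119293-35121928. The part of this position in the Cebpg value was not tested. All 8 partners had a log2 fold change above 0, with a median of 0.38, where 53.9% of all genes tested were above 0. Ddit3 (CHOP), the partner that turns on growth arrest and death genes, had 13.0, 15.3 and 10.6 CPM against 22.4, 20.9 and 18.2 CPM. These groups did not overlap, with a log2 fold change of 0.66 and an adjusted p of 0.0703 in edgeR's quasi-likelihood test. Cebpd was at 0.81 with an adjusted p of 0.0650, also without overlap, and Cebpb at 0.46 with an adjusted p of 0.257 and overlap. DESeq2 called 3 of the 8 higher, Cebpg, Ddit3 (adjusted p = 0.00799) and Cebpd (adjusted p = 0.00347).

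Trib3 (chr2:152337422-152344032) encodes a pseudokinase induced by ATF4 and CHOP that binds ATF4 and AKT. It had 8.20, 6.25 and 9.09 CPM in Cebpa_fl/fl and 14.8, 14.6 and 10.3 CPM in Cebpa_ASKO. All Cebpa_ASKO libraries were above all controls, with Cebpa_ASKO 3 again the nearest. The log2 fold change was 0.75 (95% interval 0.26 to 1.24, SE 0.205), the highest of the 10 members, with an adjusted p of 0.0992 in edgeR's quasi-likelihood test and 0.0190 in DESeq2.

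Nupr1 (chr7:126623249-126630861) encodes a small chromatin-associated stress protein induced with ATF4. It had 83.8, 90.9 and 83.3 CPM in Cebpa_fl/fl and 142, 123 and 96.5 CPM in Cebpa_ASKO. The groups did not overlap, and Cebpa_ASKO 3 lay just above the controls. The fitted log2 fold change was 0.49 (95% interval 0.14 to 0.84, SE 0.146), with an adjusted p of 0.129 in edgeR's quasi-likelihood test, 0.0493 in DESeq2 and 0.0389 in edgeR without Cebpa_ASKO 3. With any other single library left out, edgeR did not call Nupr1, at adjusted p of 0.140 to 0.343.

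Asns (chr6:7675169-7693254) encodes asparagine synthetase, which makes asparagine from aspartate and glutamine and is a classic target of ATF4. It had 70.5, 75.9 and 77.1 CPM in Cebpa_fl/fl and 43.1, 30.97 and 35.6 CPM in Cebpa_ASKO. The genotypes were far apart, with the highest Cebpa_ASKO library well under the lowest control. Asns fell by 1.03 on the log2 scale (95% interval -1.34 to -0.72, SE 0.130), with an adjusted p of 0.00759 in edgeR's quasi-likelihood test and higher levels in 3 of 3 controls. The call held with each library left out in turn, with adjusted p between 0.0148 and 0.0322. It was lost with the summed skeletal muscle level as a covariate, a fit in which 0 genes were called and in which Cebpa itself was not.

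Sesn2 (chr4:132492032-132510501) encodes sestrin 2, which senses leucine, restrains mTORC1 through GATOR2 and is induced by ATF4 and p53. It had 22.4, 17.3 and 16.8 CPM in Cebpa_fl/fl and 11.6, 9.11 and 10.3 CPM in Cebpa_ASKO. The groups did not overlap, and Cebpa_fl/fl 1 stood above the other controls. Sesn2 fell by 0.86 on the log2 scale (95% interval -1.24 to -0.49, SE 0.157), with an adjusted p of 0.0295 in edgeR's quasi-likelihood test. The call was kept without Cebpa_fl/fl 2, at an adjusted p of 0.0386, and was lost without any other library. There the adjusted p was 0.0717 without Cebpa_fl/fl 1, 0.0535 without Cebpa_fl/fl 3, 0.0818 without Cebpa_ASKO 1, 0.111 without Cebpa_ASKO 2 and 0.0722 without Cebpa_ASKO 3. The log2 fold change stayed between -0.95 and -0.72 in these fits. The call was also lost with the muscle covariate and in limma on TPM without a filter (adjusted p = 0.107). Its paralogues Sesn1 and Sesn3 had log2 fold changes of 0.03 and 0.16.

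Chac1 (chr2:119351229-119354381), whose product degrades glutathione and which is induced by ATF4 and CHOP, was low in both genotypes. It had 1.65, 2.27 and 2.44 CPM in Cebpa_fl/fl and 1.14, 1.74 and 3.10 CPM in Cebpa_ASKO. The 3 Cebpa_ASKO libraries spread on both sides of the controls, from 36 to 138 counts. The log2 fold change was -0.08 with a 95% interval of -1.02 to 0.85, so a change of 0.85 in size in either direction was not excluded at this spread.

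Gdf15 (chr8:70629393-70632456), a hormone of cellular stress that curbs feeding through the hindbrain, was near the limit of detection. Its libraries held 20, 13 and 9 counts in Cebpa_fl/fl and 4, 16 and 17 counts in Cebpa_ASKO, or 0.127 to 0.445 CPM. The groups overlapped fully. On the log2 scale the difference was 0.04 with a 95% interval of -1.24 to 1.32 (adjusted p = 0.980 in edgeR's quasi-likelihood test). A change anywhere within these bounds was not excluded at this depth.

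Levels can be compared between genes on the authors' TPM, which are scaled by transcript length and library. In Cebpa_fl/fl iWAT the order ran from Nupr1 at 159 ± 17.4 TPM (SD, n = 3) through Atf5 at 143 ± 11.3, Atf4 at 89.7 ± 6.41 and Asns at 49.0 ± 5.29 to Ppp1r15a at 14.6 ± 3.34. Below them stood Sesn2 at 6.72 ± 0.755, Trib3 at 5.27 ± 0.989, Atf3 at 4.80 ± 0.436, Chac1 at 1.73 ± 0.411 and Gdf15 at 0.296 ± 0.112 TPM. Nupr1 and Atf5 overlapped with each other in both genotypes, as did Trib3 and Atf3, and in Cebpa_fl/fl Sesn2 and Trib3 also overlapped. In Cebpa_ASKO iWAT the first 5 places were the same. Atf5 reached 216 ± 19.0 TPM and Atf4 111 ± 2.60 TPM there, while Asns stood at 26.5 ± 3.66 TPM. Trib3 at 9.46 ± 1.298 TPM and Atf3 at 6.47 ± 2.10 TPM were above Sesn2 at 3.86 ± 0.30 TPM, with no overlap between Sesn2 and either.

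**Figure D3:**
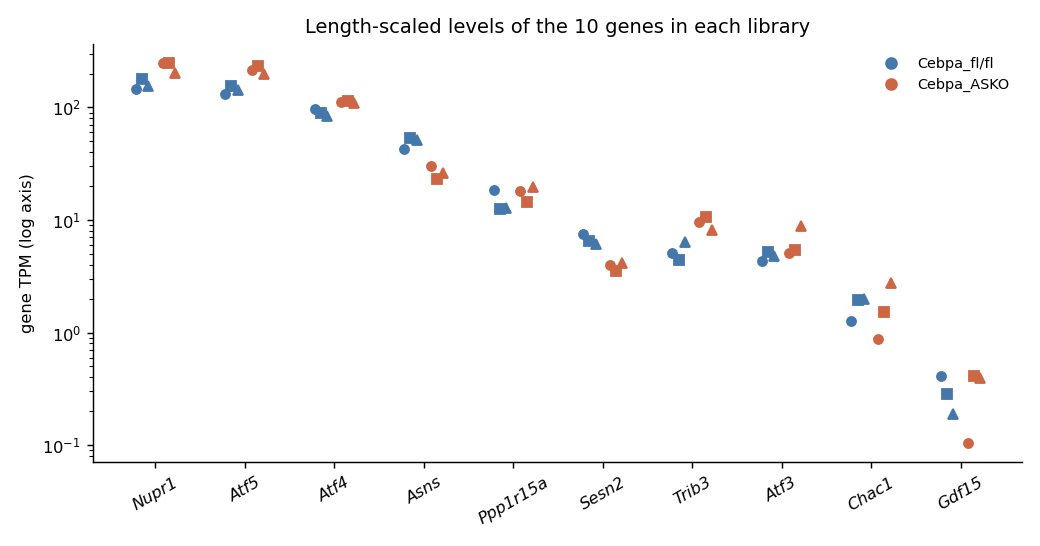
Gene TPM of each of the 10 genes in each library on a log axis, ordered by the Cebpa_fl/fl mean. Marker shapes are libraries 1 to 3, as circles, squares and triangles. Levels run from Nupr1, at a Cebpa_fl/fl mean of 159 TPM, to Gdf15, at 0.296 TPM, and Sesn2 changes places with Trib3 and Atf3 between the genotypes.

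The deposited tables split these genes into 32 transcripts, of which 7 were listed at 0 TPM in every library. In 7 of 10 genes 1 transcript carried over 80% of the TPM in each library. Asns-201, of 2001 bases, carried 85.1% to 100% of the Asns TPM and had 3164, 3567 and 3635 estimated counts in Cebpa_fl/fl and 1326, 1200 and 1579 in Cebpa_ASKO. Its share was lowest in Cebpa_ASKO 1, where the 448-base noncoding Asns-206 was given 4.54 TPM from 34.5 estimated counts. Ppp1r15a was split between the full-length Ppp1r15a-201 and Ppp1r15a-203, a 389-base model. Ppp1r15a-201 had 10.4, 8.14 and 8.22 TPM in Cebpa_fl/fl and 12.5, 10.1 and 15.9 TPM in Cebpa_ASKO. Ppp1r15a-203 had 7.94, 4.42 and 4.40 TPM against 5.47, 4.26 and 3.34 TPM, from at most 67.1 estimated counts. Sesn2 and Chac1 each had a single annotated transcript.

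Asns is 1 of the synthesis genes that ATF4 is known to drive, so 15 others were set beside it. Of these enzymes of amino acid synthesis and one-carbon metabolism, 5 fell and 1 rose. Their median log2 fold change was -0.24. It ran from -0.32 to 0.03 with 1 library left out, highest without Cebpa_fl/fl 1. Phgdh and Psat1, the first enzymes of serine synthesis, fell by 2.50 and 1.40 on the log2 scale. Phgdh had 103, 165 and 107 CPM in Cebpa_fl/fl and 26.2, 24.9 and 15.5 CPM in Cebpa_ASKO. Cbs and Cth, which turn homocysteine into cysteine, fell by 1.86 and 2.97, and Cth had 7.51, 12.5 and 10.3 CPM against 1.30, 1.43 and 1.15 CPM. Gpt2, the mitochondrial alanine aminotransferase, fell by 2.50. The adjusted p of these 5 was between 0.000724 and 0.0130 in edgeR's quasi-likelihood test. Got1, the cytosolic aspartate aminotransferase, rose by 0.88, from 15.6, 10.7 and 15.6 CPM to 26.0, 26.2 and 25.2 CPM (adjusted p = 0.0280 in edgeR's quasi-likelihood test). The Got1 call was kept without Cebpa_fl/fl 2 and lost without any other library, with adjusted p of 0.0522 to 0.116, and the Cbs call was lost without Cebpa_ASKO 1, at 0.0818. The other 9 enzymes were not called by edgeR and lay on both sides of 0. Shmt2, Mthfd2, Aldh1l2 and Pycr1 had log2 fold changes of 0.24, 0.49, 0.81 and 0.32, and Aldh18a1 and Pck2 of 0.20 and 0.18. Psph, Mthfd1l and Shmt1 were at -0.79, -0.45 and -0.24. DESeq2 called 2 of the 15 higher, Got1 and Aldh1l2, the latter with an adjusted p of 0.00665, and 5 lower.

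Of 12 amino acid transporters of the ATF4 programme, 2 fell and 0 rose, where 3 had an unadjusted p below 0.05 as higher and DESeq2 called 2 higher. Of all genes, edgeR called 3.84% lower, 9.44% had such a p as higher and DESeq2 called 3.98% higher. Slc1a5, the glutamine carrier ASCT2, had 836, 1082 and 1149 CPM in Cebpa_fl/fl and 413, 386 and 392 CPM in Cebpa_ASKO and fell by 1.36 on the log2 scale (adjusted p = 0.00496 in edgeR's quasi-likelihood test). Slc43a1, the large neutral amino acid carrier LAT3, fell by 2.80 (adjusted p = 0.00659). The median of the list was 0.03. It ran from -0.09 to 0.08 with 1 library left out, lowest without Cebpa_fl/fl 2.

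The 20 cytosolic aminoacyl-tRNA synthetases, which attach amino acids to tRNA and many of which are ATF4 targets, were the tightest list. None was called in either direction by edgeR's quasi-likelihood test or by DESeq2, and 1 had an unadjusted p below 0.05. Their log2 fold changes ran from -0.20 for Mars to 0.27 for Vars, with a median of 0.07, and no 95% interval reached beyond -0.39 or 0.57. The element TGATGNAAN was in the promoters of 5 of the 12 synthetases in the promoter table, Aars, Gars, Iars, Tars and Yars. It was in 3 of 13 synthesis enzymes, 2 of 9 transporters, 0 of 15 kinase and translation control genes and 0 of 17 ER chaperone genes. Among the called enzymes with a promoter in the table, Got1 held the element, and the letters were not in the windows of Phgdh, Psat1, Cbs and Gpt2.

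Of 15 other ATF4 and CHOP targets tested, 2 rose and 1 fell, and DESeq2 called 3 higher and 1 lower. Of all genes, edgeR called 1.39% higher and 3.84% lower, and DESeq2 3.98% and 6.7%. The median of these targets was 0.17, and it was 0.0086 without Cebpa_fl/fl 3, 0.010 without Cebpa_ASKO 3 and 0.09 without Cebpa_ASKO 1. Tnfrsf10b, the death receptor DR5, rose by 1.02 on the log2 scale, from 8.46, 6.99 and 8.79 CPM to 18.7, 16.5 and 13.9 CPM (adjusted p = 0.0156 in edgeR's quasi-likelihood test). That call was lost without Cebpa_fl/fl 1, Cebpa_ASKO 1 or Cebpa_ASKO 2, at 0.0507, 0.0771 and 0.0690. Cdkn1a, the cell cycle inhibitor p21, rose by 0.50 (adjusted p = 0.0380), a call that was lost with any library left out. Eif4ebp1, the translation repressor 4E-BP1, had 171, 231 and 191 CPM in Cebpa_fl/fl and 49.1, 40.7 and 50.5 CPM in Cebpa_ASKO and fell by 2.08 (adjusted p = 0.000967). Fgf21, the stress hormone, was at 0 to 0.200 CPM and was not tested.

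ATF4 shares its upstream kinase PERK with the unfolded protein response, whose other branches run through ATF6 and XBP1. Of 20 ER chaperones and genes of those branches, Syvn1, the ubiquitin ligase HRD1, fell by 0.51 (adjusted p = 0.0418 in edgeR's quasi-likelihood test) and none rose. The Syvn1 call was kept without Cebpa_fl/fl 2 and lost without any other library, with adjusted p of 0.0521 to 0.172. None of the list had an unadjusted p below 0.05 as higher, and DESeq2 called 3 lower. Hspa5 (BiP), the main ER chaperone, had 397, 466 and 393 CPM in Cebpa_fl/fl and 365, 316 and 430 CPM in Cebpa_ASKO, overlapping, with a log2 fold change of -0.18. The median of the list was -0.09. It ran from -0.27 to 0.00067 with 1 library left out, highest without Cebpa_fl/fl 2.

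**Figure D4:**
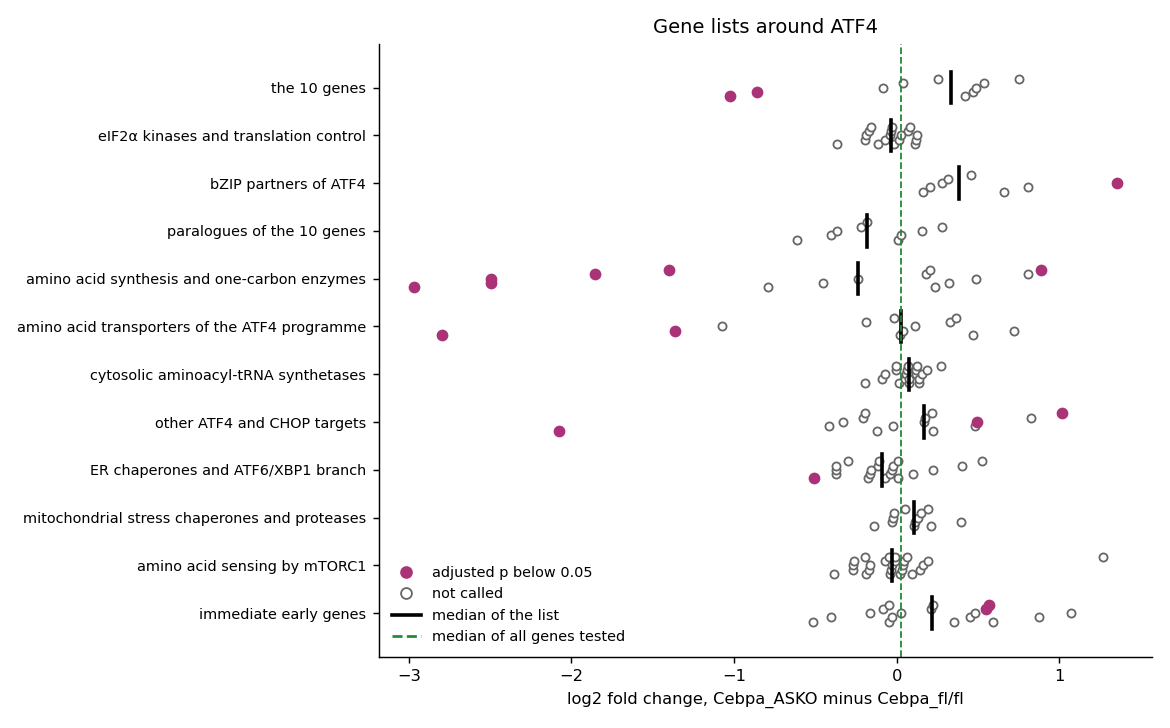
Log2 fold changes, Cebpa_ASKO minus Cebpa_fl/fl, of every tested gene in the 10-gene set and in 11 lists around ATF4. Each point is a gene, filled where the adjusted p was below 0.05, thick lines are list medians and the dashed line is the median of all genes tested (0.02). Called points lie on both sides in the enzyme list, where 5 fell and 1 rose, and no synthetase, kinase or translation control gene is filled.

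The same libraries were searched for the tested genes whose log2 CPM, centred over the 6 libraries, lay closest to those of Atf4, Asns and Sesn2. There were 12669 candidates. The nearest to Atf4 were Snupn, Zfp35 and Herpud1, with root mean square differences of 0.03, 0.04 and 0.04 log2 units. Herpud1, an ER degradation factor, had 56.5, 50.7 and 48.9 CPM in Cebpa_fl/fl and 65.9, 60.2 and 55.0 CPM in Cebpa_ASKO. The nearest to Asns were Proca1, Gpihbp1 and Tmem53, at 0.06, 0.08 and 0.09. Gpihbp1, the capillary anchor of lipoprotein lipase, had 53.3, 60.6 and 67.4 CPM against 31.6, 23.6 and 27.8 CPM. The nearest to Sesn2 were Rxrg, Ppm1m and Hmces, at 0.10, 0.11 and 0.13. These are descriptions over 6 libraries of 2 genotypes.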

How the data were processed

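Each library was quantified per transcript by the authors with kallisto 0.44.0, and the submitters' processing notes list build GRCm38.p6. The study names an Illumina TruSeq library on poly-A RNA. The deposited transcript tables hold estimated counts and TPM (transcripts scaled by length and library), and the authors also deposited a TPM value per gene symbol. The estimated counts were summed per gene symbol through GENCODE M21, which matched 116816 of 118489 transcripts and 99.5% to 99.6% of the counts, and were rounded to whole numbers.

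Counts were tested with edgeR 4.0.16 (R 4.3.3): filterByExpr, TMM, glmQLFit and glmQLFTest over all 16069 genes that passed, with Benjamini-Hochberg adjustment and a threshold of 0.05. All 10 members passed the filter. Standard errors and 95% intervals came from the same fit. CPM are on TMM library sizes, between 31550250 and 47191013. The script was tested on simulated data. No library pair of a genotype was a duplicate, with chi-square per degree of freedom between 25.9 and 224. Each library is 1 mouse.

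Alternatives were DESeq2 1.42.0, other scalings and filters, a length offset, limma 3.58.1 on log2(TPM + 1) and log2(TPM + 0.1), which understates low genes, the replicate number as a block, a covariate for skeletal muscle, and fits that leave out 1 library each. The members and the gene lists were chosen with earlier results of these data known. Genes named were the members, Cebpa, list genes that were called, the 2 of largest size in lists without a call, and the 3 genes closest in profile to Atf4 and to each called member. Ddit3, Cebpb, Cebpd, the kinase genes, Sesn1, Sesn3, the uncalled enzymes of amino acid synthesis, Fgf21, Hspa5 and Egr2 were named after their values were seen. Promoters are RefSeq's, on GRCm38.p6, and gene positions are GENCODE's on GRCm38. A TPM table carries no depth of its own, so depth is given from the counts.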

Additional observations from a re-analysis of the deposited data

How the results depend on the processing

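Across 17 other settings Asns kept its direction and its call in 16, and Atf4, Atf3 and Ppp1r15a stayed above 0 without a call in each. The summed skeletal muscle level nearly follows genotype in 6 libraries, so a fit with it as a covariate cannot separate muscle from genotype. In that fit 0 genes were called, 0 members higher and 0 lower, 0 list genes higher and 0 lower. The log2 fold change there was -3.98 for Cebpa, -0.72 for Asns, -0.47 for Sesn2, 0.86 for Chac1 and -0.14 for Gdf15. It was 0.15 for Atf5, 0.31 for Trib3 and 0.013 for Nupr1, against 0.54, 0.75 and 0.49 without the covariate. Those of Atf3 and Ppp1r15a were larger with the covariate than without it. DESeq2 called 1813 genes, 3 members higher (Atf5 0.52, Trib3 0.74, Nupr1 0.47) and 13 list genes higher. Atf5 was also called with total-count scaling (0.58) and with limma at a pseudocount of 1 (0.59) or 0.1 (0.59), which makes 1 member higher in each. limma without a filter called 359 genes, 1 member lower (Sesn2 lost, at -0.66) and 3 list genes higher. The length offset turned Gdf15 to -0.076. The share of calls that were higher was 26.5%, and it ranged from 10.6% without Cebpa_ASKO 1 and 12.8% without Cebpa_fl/fl 1 to 37.3% with DESeq2, over the fits that called any gene.

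With the replicate block 370 genes were called, 1 member lower (Sesn2 lost, at -0.86 with an adjusted p of 0.0516) and 1 list gene higher. Libraries of the same number did not deviate together (correlations 0.07, 0.03 and -0.20). With 3 libraries per genotype this cannot show whether mice of the same number were paired.

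Leaving out each library in turn gave 311 to 922 genes called, 0 to 2 members higher, 1 to 2 lower, 1 to 7 list genes higher, and log2 fold changes of 0.47 to 0.62 for Atf5, 0.35 to 0.61 for Nupr1, -0.95 to -0.72 for Sesn2, -0.57 to 0.19 for Chac1 and -0.22 to 0.41 for Gdf15. Of 255 pairs of a called list gene and a setting, 193 kept direction and call, 62 lost the call and 0 changed sign. Gdf15 gave no value in the fits limited to 10 counts in every library or to a TPM of 1. Depth limited Gdf15 most, at 4 to 20 counts per library.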

Other observations

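Amino acids also act on mTORC1 through the Rag GTPases and the GATOR complexes, the path on which Sesn2 sits. Of 25 genes of this path, 0 were called in either direction in edgeR's quasi-likelihood test, 4 had an unadjusted p below 0.05, and DESeq2 called 1 higher and 1 lower. Of all genes, 19.8% had such a p, and DESeq2 called 3.98% higher and 6.7% lower. The median log2 fold change of the 25 genes was -0.03. Rragd, the Rag GTPase induced by the lysosomal TFEB family, had 1.31, 2.80 and 2.44 CPM in Cebpa_fl/fl and 4.82, 7.79 and 3.19 CPM in Cebpa_ASKO, without overlap and with a log2 fold change of 1.27 (adjusted p = 0.157 in edgeR's quasi-likelihood test). The library with the highest Rragd, Cebpa_ASKO 2, also had the highest summed skeletal muscle markers, 5821 CPM, and the part of muscle in this value was not tested. Castor1, the arginine sensor, was at -0.39 with an adjusted p of 0.334.

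Of 12 mitochondrial stress chaperones and proteases, neither edgeR's quasi-likelihood test nor DESeq2 called any (0 each), and 1 had an unadjusted p below 0.05. Clpx, a subunit of a matrix protease, was at 0.40 and Hspa9, mitochondrial HSP70, at 0.21, with adjusted p of 0.189 and 0.642. Of 9 paralogues of the members 0 were called, and 2 had an unadjusted p below 0.05, both lower. The largest were Nupr1l at -0.61 and Trib2 at -0.40.

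Of 18 immediate early genes 2 rose, where 1.39% of all genes tested were called higher. Jun rose by 0.57 and Klf6 by 0.55 on the log2 scale, with adjusted p of 0.0341 and 0.0118 in edgeR's quasi-likelihood test. The Jun call was kept without Cebpa_fl/fl 2 and lost without any other library, and the Klf6 call was lost without Cebpa_fl/fl 1, Cebpa_fl/fl 3 or Cebpa_ASKO 1, with adjusted p of 0.0938 to 0.140 and 0.0519 to 0.0711. Several others were high in Cebpa_ASKO 3 alone. Egr2 had 11.4, 4.26 and 12.9 CPM in Cebpa_fl/fl and 6.97, 4.06 and 41.2 CPM in Cebpa_ASKO.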
